A study of Mus musculus with 9 samples.

Results

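Semaphorins and ephrins are the ligands, and plexins and Eph receptors the receptors, of 2 families of contact and guidance signals. All 51 protein-coding genes of the 4 groups were taken from the count table by their symbols: 20 semaphorins, 9 plexins, 8 ephrins and 14 Eph receptors, of 55487 genes in all. They were measured by poly-A RNA-seq in 9 libraries of MCEC, an established line labelled as murine cardiac endothelial cells. There were 3 libraries of unmodified cells (WT), 3 of cells with Zbtb46 knocked down (KD) and 3 of cells with enforced overexpression of Zbtb46 (OE). Zbtb46 is a BTB-domain zinc finger protein that regulates transcription. How the knockdown and the overexpression were made, whether the modified cells were clones or pools, and whether WT cells carried a control vector are not given in the sources used here. The labels also do not say whether the 3 libraries of a group came from separate cultures, so the p-values measure the spread between these libraries only.

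Secreted class 3 semaphorins reach plexins mostly through the co-receptors neuropilin-1 and neuropilin-2, whereas Sema3e binds Plxnd1 directly and the membrane-bound classes bind plexins without a neuropilin. Plexins inactivate small GTPases of the Ras and Rap kind and change the actin cytoskeleton and integrin adhesion. In vessels, Sema3e with Plxnd1 is known for steering and repelling endothelial sprouts. Ephrin-A ligands are held in the membrane by a lipid anchor and ephrin-B ligands by a transmembrane segment; Eph receptors are tyrosine kinases, and signals run in both directions at the contact. Efnb2 is the classic marker of arterial endothelium and its receptor Ephb4 of venous endothelium.

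Total counts were between 39491828 and 55745849 per library, and ribosomal RNA took 7.44% to 17.31% of them in WT, 9.55% to 11.96% in KD and 14.41% to 18.21% in OE. The KD and OE shares did not overlap, and WT library 1, at 17.31%, lay within the OE range; the part of this in the results was not tested. Between WT replicates, the median squared difference of a gene was 8.27 to 11.5 times that expected from sampling noise. In KD and OE it was 2.97 to 5.54 times. Libraries were scaled for this by their summed counts alone. The edgeR fit used below takes 1 spread per gene for all 3 groups. Where WT varies more, p-values against WT can thus be too small, and those of OE against KD too large. Levels are given as CPM (library-size-scaled counts, with TMM factors), and changes as log2 fold changes with edgeR's Benjamini-Hochberg adjusted p over the 16955 genes tested, at a threshold of 0.05. The WT libraries held Zbtb46 mRNA at 13.7 ± 0.623 CPM, the KD libraries at 11.2 ± 0.537 CPM and the OE libraries at 191 ± 2.67 CPM (mean ± SD, n = 3, here and for every ± that follows). It was thus only 17.8% lower in KD (adjusted p 0.00144, edgeR) and 14.0-fold higher in OE (adjusted p 3.22e-21, edgeR). The endothelial label was not borne out by several defining markers. Of 12 endothelial genes, 7 were under 1 CPM in every library, namely Vwf, Pecam1, Cdh5, Tie1, Cldn5, Emcn and Erg, the last at 0 counts throughout. The summed level of the list, mostly Eng, was 142 to 154 CPM in WT, 121 to 128 in KD and 105 to 115 in OE. Flt1 was at 17.2, 12.1 and 21.9 CPM in WT, KD and OE. It fell in KD by 0.51 (adjusted p 0.000109, edgeR) and rose in OE by 0.35 (adjusted p 0.00151, edgeR) on the log2 scale. Kdr was at 2.64, 1.40 and 1.77 CPM, Tek at 1.84, 1.41 and 0.459, and Esam at 0.612, 0.558 and 0.47. An 8-gene arterial list, without Efnb2, summed to 5.73 to 6.83, 6.71 to 7.15 and 5.55 to 6.85 CPM in WT, KD and OE. Its Sox17, Dll4, Bmx, Cxcr4, Gja4 and Gja5 were under 1 CPM. A 4-gene venous list, without Ephb4 and mostly Nr2f2, summed to 57.0 to 63.5, 62.7 to 65.2 and 65.9 to 68.1 CPM. A 4-gene lymphatic endothelial list, nearly all Flt4 and Pdpn, summed to 202 to 208, 202 to 210 and 159 to 163 CPM. Its Prox1 and Lyve1 were under 1 CPM. Genes of a 6-gene fibroblast list, mostly Col1a1, summed to 5138 to 5712 CPM in WT, 4884 to 4948 in KD and 4059 to 4153 in OE, with Lum and Tcf21 under 1 CPM. A 6-gene smooth muscle or pericyte list, with Myh11 and Rgs5 under 1 CPM, summed to 12.0 to 14.8 CPM in WT, 6.99 to 7.16 in KD and 4.38 to 5.42 in OE. Its Acta2 fell by 1.47 in KD (adjusted p 2.66e-07, edgeR) and by 2.14 in OE (adjusted p 4.83e-10, edgeR) on the log2 scale. Of the other tested genes of that list, Pdgfrb fell in OE by 1.42 (adjusted p 5.17e-05, edgeR) and did not pass in KD. Myh11, Cnn1 and Des passed in neither, with OE changes of -0.59, 0.02 and -0.07. A 5-gene epithelial list, nearly all Krt14, summed to 508 to 583, 581 to 602 and 429 to 435 CPM in WT, KD and OE. Its Cdh1, Krt18 and Epcam were under 1 CPM. Of the 4-gene neuron list, Map2 rose in KD and fell in OE, and the sums were 36.7 to 42.3, 55.0 to 59.2 and 32.7 to 33.7 CPM, with Rbfox3 and Snap25 near 0. The part of these shifts in the results below was not tested. In bulk RNA, fewer cells that express a gene and less RNA per cell cannot be told apart.

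Of the 51 genes, 44 had enough counts to be tested. The other 7, Sema4f, Sema5b, Epha5, Epha6, Epha8, Epha10 and Ephb1, had at most 9 counts in any library. Between KD and WT, 6 of the 44 rose and 19 fell. Over all genes tested, 11.0% rose and 10.4% fell in that comparison, 21.3% in all. Between OE and WT, 2 rose and 23 fell. The corresponding shares over all genes were 17.0% higher and 19.5% lower, 36.4% in all. The median log2 fold change of the 44 was -0.21 in KD and -0.30 in OE, against -0.00216 and 0.00204 over all genes tested. With genes kept only at 10 or more counts in every library, which drops weakly expressed members, the KD median was -0.06. The KD and WT libraries did not overlap for 31 of the 44 genes, against 34.7% of all genes, and OE and WT did not overlap for 29, against 45.1%. Both comparisons use the same 3 WT libraries, so their results are not independent of each other. Among the genes called, the median log2 change, whatever its sign, was 0.42 in KD and 0.47 in OE. In each comparison 4 called genes changed by at least 2-fold. In KD these were Sema4g and, under 1 CPM in every library, Sema3g, Sema6b and Sema7a. Each of these low genes lost its call when certain single libraries were left out. In OE they were Plxnd1, Plxna2, Sema6a and Sema6d, all above 1 CPM in every library. The share of all genes at 2-fold is not given here.

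**Figure D1:**
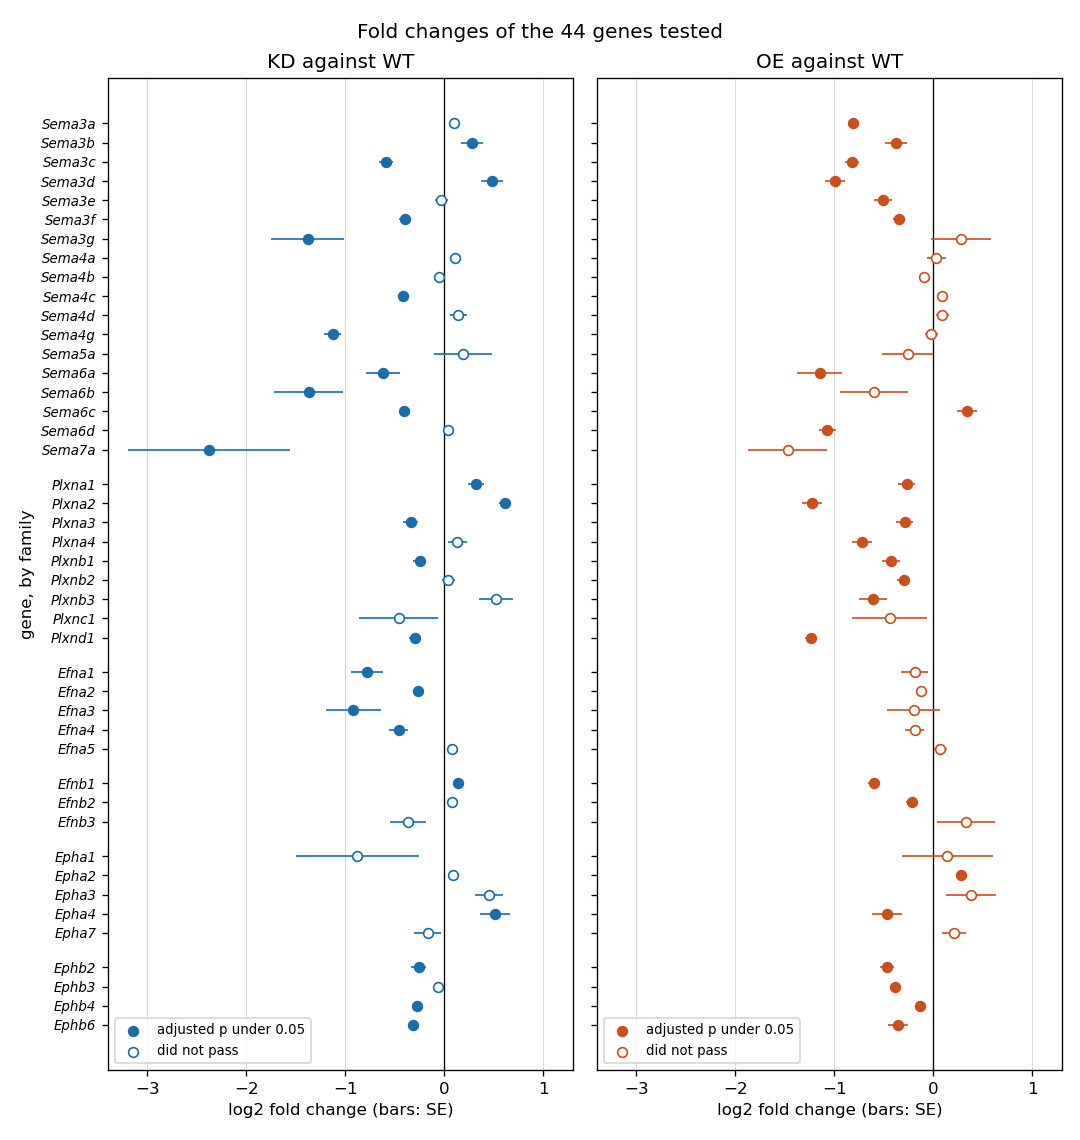
Log2 fold changes of the 44 genes tested, KD against WT on the left and OE against WT on the right, with bars for the standard error (n = 3 libraries a group) and filled points for an adjusted p under 0.05. Nearly all filled points of the OE panel lie left of 0, with Sema6c and Epha2 on the right, and 6 filled points of the KD panel lie right of 0.

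Set side by side, the 2 comparisons sorted the 44 genes into a few patterns. Higher in KD and lower in OE were 6 genes: Sema3b, Sema3d, Plxna1, Plxna2, Efnb1 and Epha4; 4.12% of all genes had this pattern. Only Sema6c was lower in KD and higher in OE, against 2.94% of all genes. Lower in both were 9 genes, Sema3c, Sema3f, Sema6a, Plxna3, Plxnb1, Plxnd1, Ephb2, Ephb4 and Ephb6, a pattern that 3.11% of all genes had. Another 9 passed the test in KD alone, all lower, as were 4.32% of all genes: Sema3g, Sema4c, Sema4g, Sema6b, Sema7a, Efna1, Efna2, Efna3 and Efna4. Passing in OE alone were Epha2, which was higher, and 8 lower genes: Sema3a, Sema3e, Sema6d, Plxna4, Plxnb2, Plxnb3, Efnb2 and Ephb3. Over all genes, 11.2% were higher and 12.2% lower in OE alone. The remaining 10, Sema4a, Sema4b, Sema4d, Sema5a, Plxnc1, Efna5, Efnb3, Epha1, Epha3 and Epha7, passed in neither, against 55.3% of all genes.

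The bases just before the transcription start are shown for 4 of the genes with opposite changes in KD and OE, and for Plxnd1, a plexin that was lower in both. Each run is the 250 bases upstream of the RefSeq start on GRCm38.p6, read 5′ to 3′ on the strand of the gene. Capitals mark matches, on either strand, to the GC box GGGCGG, the ETS-type core CCGGAAG, the cyclic AMP element TGACGT, the E-box CACGTG or the TATA element TATAAA. The windows are chr5:12382916-12383165 (plus strand) for Sema3d, chr1:194619579-194619828 (plus) for Plxna2, chr1:77515089-77515338 (minus) for Epha4, chrX:99135811-99136060 (plus) for Efnb1 and chr6:115995006-115995255 (minus) for Plxnd1.
Sema3d: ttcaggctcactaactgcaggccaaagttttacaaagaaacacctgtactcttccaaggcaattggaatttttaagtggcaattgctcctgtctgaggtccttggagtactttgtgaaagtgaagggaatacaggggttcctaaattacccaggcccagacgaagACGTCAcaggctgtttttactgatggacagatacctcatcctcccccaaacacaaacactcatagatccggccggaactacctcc
Plxna2: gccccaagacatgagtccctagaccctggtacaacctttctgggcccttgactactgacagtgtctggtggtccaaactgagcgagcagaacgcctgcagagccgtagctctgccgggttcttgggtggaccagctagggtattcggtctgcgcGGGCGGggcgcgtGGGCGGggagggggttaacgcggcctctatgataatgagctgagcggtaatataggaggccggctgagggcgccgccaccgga
Epha4: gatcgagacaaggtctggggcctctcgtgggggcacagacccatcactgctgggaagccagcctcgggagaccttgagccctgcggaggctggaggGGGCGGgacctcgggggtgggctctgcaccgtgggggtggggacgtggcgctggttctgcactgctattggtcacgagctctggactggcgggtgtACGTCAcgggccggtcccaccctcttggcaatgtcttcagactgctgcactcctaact
Efnb1: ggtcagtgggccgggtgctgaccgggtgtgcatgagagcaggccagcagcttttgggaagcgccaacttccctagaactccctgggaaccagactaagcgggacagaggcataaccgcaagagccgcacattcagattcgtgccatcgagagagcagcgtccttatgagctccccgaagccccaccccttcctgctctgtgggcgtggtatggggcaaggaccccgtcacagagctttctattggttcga
Plxnd1: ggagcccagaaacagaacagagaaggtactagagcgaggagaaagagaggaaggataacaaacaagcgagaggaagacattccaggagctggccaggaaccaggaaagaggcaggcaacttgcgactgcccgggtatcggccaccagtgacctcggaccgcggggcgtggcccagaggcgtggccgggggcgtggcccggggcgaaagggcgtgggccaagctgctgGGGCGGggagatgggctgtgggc
The RefSeq start of Plxna2 lies 1611 bases inside the outermost GENCODE start, and its window overlaps a second annotated transcript. Sema3d and Epha4 each held 1 TGACGT match, read here as ACGTCA, its reverse complement. Plxna2 held 2 matches of GGGCGG, and Epha4 and Plxnd1 held 1 each, while Efnb1 held none of the 5 motifs. Across the 45 genes of the 4 families with a RefSeq promoter in the table, 35 (77.8%) held GGGCGG, against 35.4% of the promoters of 27025 genes. The median GC content of all promoter windows was 52.4%, and the 5 shown held 46.8% to 66.0%. The 27025 genes were not filtered by gene type or expression, whereas the 45 are all protein-coding. The parts of base composition and of gene type in the differences of GGGCGG and TATAAA were not tested. TATAAA was in 1 of the 45 (2.22%, Efnb2) and in 14.3% of all. TGACGT was in 3 (6.67%, with Epha2 the other) and in 7.29% of all, CACGTG in 3 (6.67%) and 6.86%, and CCGGAAG in 2 (4.44%) and 7.83%. A match is only a match of letters, and binding was not measured.

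**Figure D2:**
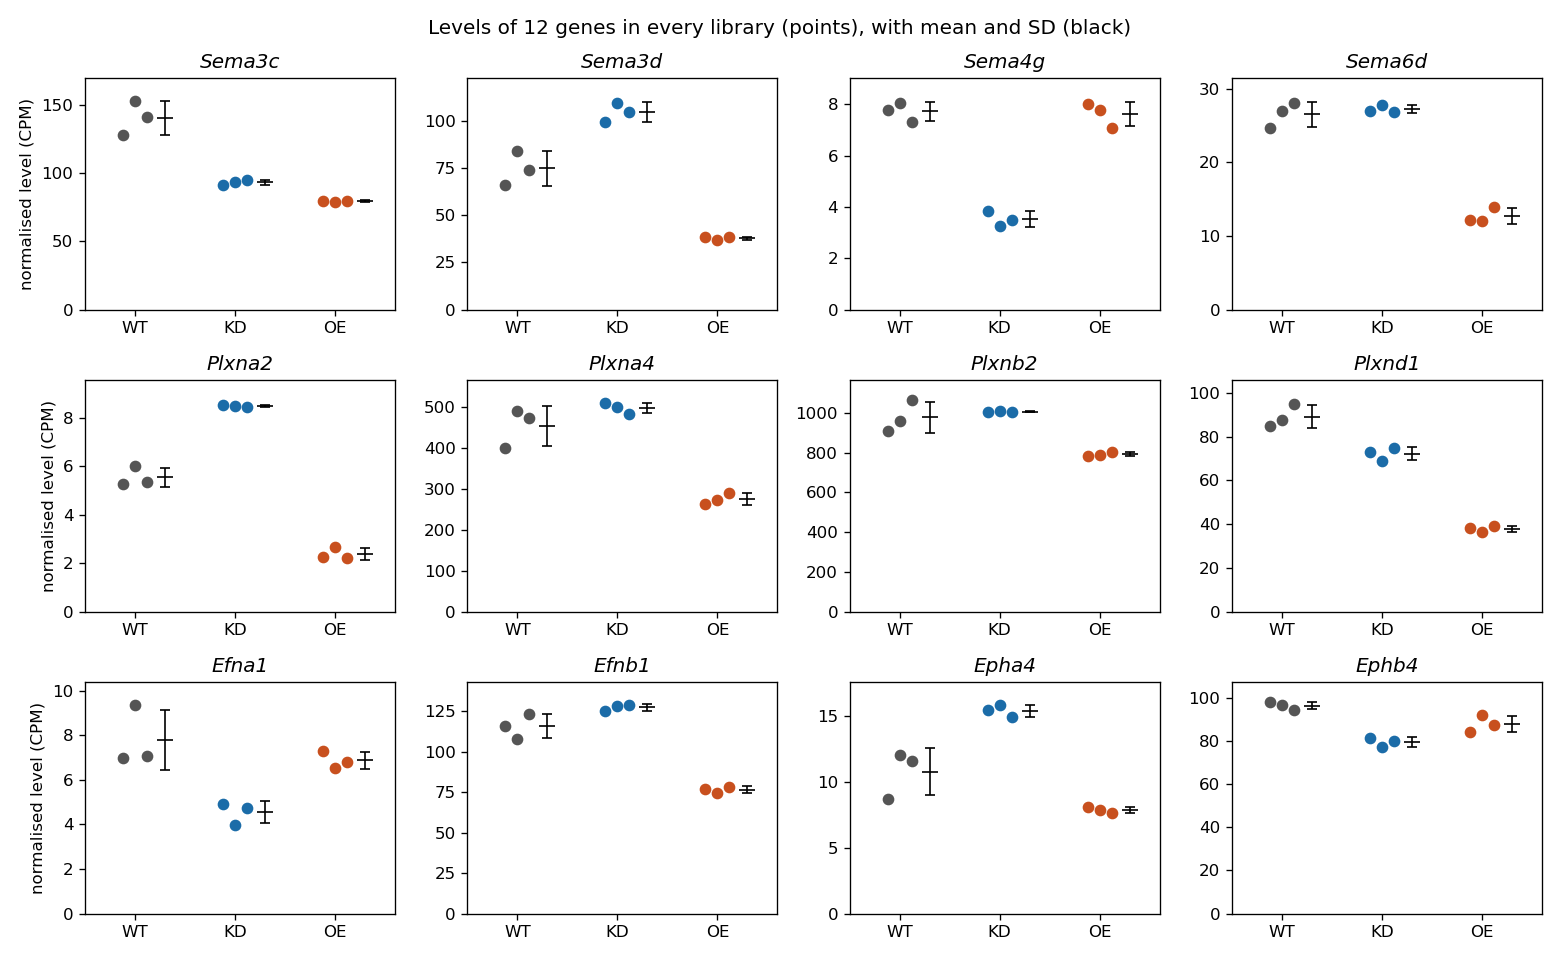
Normalised level in CPM (vertical axes from 0) of 12 of the genes in each of the 9 libraries, with the mean and SD of each group in black. Sema3d, Plxna2 and Epha4 were highest in KD and lowest in OE, Sema3c and Plxnd1 were highest in WT, and Sema4g was low in KD alone.

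Among the ligands, the 7 class 3 semaphorins were all tested. Of these, 2 rose and 3 fell in KD, and 6 fell in OE, where Sema3g did not pass. Those called were 71.4% of the 7 in KD and 85.7% in OE, against 21.3% and 36.4% of all genes. Sema3d, Sema3a, Sema3e and Sema3c lie in that order on chromosome 5, between 12383385 and 17730268 on GRCm38. Sema3d, a secreted guidance factor with a known part in heart and vessel development, measured 66.1, 84.4 and 74.4 CPM in WT, 99.5, 110.0 and 105 in KD, and 38.3, 36.9 and 38.3 in OE. The 3 groups did not overlap, with KD highest and OE lowest. Its log2 fold change was 0.48 (SE 0.11, adjusted p 6.06e-05, edgeR) in KD and -0.99 (SE 0.10, adjusted p 4.5e-09, edgeR) in OE. Sema3c, which acts through both neuropilins, measured 128, 153 and 141 CPM in WT, 91.6, 93.3 and 95.2 in KD, and 79.7, 78.5 and 79.9 in OE. All KD and OE libraries lay below all WT libraries, and OE below KD. It fell by 0.59 in KD (SE 0.0748, adjusted p 6.81e-08, edgeR) and by 0.82 in OE (SE 0.0735, adjusted p 1.01e-10, edgeR), both on the log2 scale. Thus 2 genes of the same stretch of chromosome 5 moved in opposite directions in KD and together in OE.

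Sema3a, the founding collapse factor of growth cones, measured 73.9, 79.3 and 71.6 CPM in WT, 77.2, 81.2 and 82.0 in KD, and 40.9, 43.3 and 44.1 in OE. KD overlapped WT, and the OE libraries lay well below both. The fall in OE was 0.81 on the log2 scale (SE 0.0539, adjusted p 1.25e-10, edgeR), and the KD difference was 0.10 (adjusted p 0.213, edgeR). Sema3e, the ligand of Plxnd1, measured 137, 158 and 154 CPM in WT, 144, 149.7 and 147 in KD, and 97.3, 105 and 113 in OE. Here too only OE stood apart, lower by 0.51 on the log2 scale (SE 0.0904, adjusted p 8.5e-07, edgeR), while KD differed from WT by -0.03 (adjusted p 0.802, edgeR). The 6 other tested genes between Sema3d and Sema3c included 1 that rose and 1 that fell in OE, against 17.0% and 19.5% of all genes. Their median log2 fold change was 0.27 in OE and -0.10 in KD.

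Sema3b and Sema3f lie near each other on the minus strand of chromosome 9, at 107597674 to 107609229 and 107681500 to 107710475. Sema3b measured 13.2, 15.5 and 16.7 CPM in WT, 19.6, 17.9 and 17.9 in KD, and 11.0, 11.9 and 12.2 in OE, so that the groups did not overlap. Its log2 fold changes were 0.28 in KD (SE 0.11, adjusted p 0.0257, edgeR) and -0.38 in OE (SE 0.11, adjusted p 0.00228, edgeR). The KD call was lost when WT library 1 or any one KD library was left out (0.20 to 0.31), with library totals alone and with window medians removed (0.24 in each). Sema3f, a ligand that prefers neuropilin-2, measured 92.6, 87.2 and 98.9 CPM in WT, 72.7, 68.2 and 70.4 in KD, and 73.9, 74.9 and 70.4 in OE. Both modified groups lay below WT, and they overlapped each other. The falls were 0.40 in KD (adjusted p 9.86e-06, edgeR) and 0.35 in OE (adjusted p 1.69e-05, edgeR) on the log2 scale. Sema3g was under 1 CPM in every library, at 18, 58 and 24 counts in WT, 18, 8 and 10 in KD, and 42, 41 and 33 in OE. Its KD change of -1.38 (adjusted p 0.0178, edgeR) did not pass when WT library 2, KD library 2 or KD library 3 was left out (-1.25 to -0.97).

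Of the semaphorins of classes 4 to 7, which are bound to the membrane, 11 were tested. In KD 6 of them fell, and in OE 2 fell and 1 rose. The share called was 54.5% in KD, above the 21.3% of all genes, and 27.3% in OE, below the 36.4% of all genes. Sema4g (chromosome 19, 44989101 to 45003397) measured 7.78, 8.07 and 7.32 CPM in WT, 3.85, 3.24 and 3.48 in KD, and 8.01, 7.77 and 7.09 in OE. Only KD stood apart, with all of its libraries below all others. The KD change was -1.13 (SE 0.0813, adjusted p 7.83e-07, edgeR), the OE change -0.02 (adjusted p 0.924, edgeR), and OE exceeded KD by 1.11 (adjusted p 1.65e-07, edgeR). Sema4c, a ligand of Plxnb2, measured 43.9, 42.0 and 43.1 CPM in WT, 33.1, 30.1 and 33.2 in KD, and 44.9, 46.1 and 45.9 in OE. It too was low in KD alone, by 0.42 on the log2 scale (adjusted p 1.48e-05, edgeR), and OE differed from WT by 0.09 (adjusted p 0.24, edgeR). Its exons overlap those of D430040D24Rik on the other strand, and the use of strand in counting is not given in the sources used here.

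Of the class 6 genes, Sema6d (chromosome 2, 124089969 to 124667770), a ligand of Plxna1 in the developing heart, measured 24.6, 26.9 and 28.0 CPM in WT, 27.0, 27.8 and 26.8 in KD, and 12.1, 12.0 and 13.9 in OE. KD overlapped WT, and OE lay lower by 1.07 on the log2 scale (SE 0.0881, adjusted p 4.45e-10, edgeR). Sema6a measured 4.56, 5.31 and 6.51 CPM in WT, 3.16, 3.54 and 3.95 in KD, and 2.07, 2.24 and 3.11 in OE. The groups did not overlap, with WT highest. The falls were 0.62 in KD (adjusted p 0.0122, edgeR) and 1.15 in OE (SE 0.23, adjusted p 2.63e-05, edgeR), the former lost without WT library 3 (-0.48) or KD library 1 (-0.54). Sema6c measured 5.40, 5.85 and 5.39 CPM in WT, 4.27, 4.07 and 4.16 in KD, and 7.20, 7.73 and 6.16 in OE. WT lay between the other groups without overlap, at -0.41 in KD (adjusted p 0.0226, edgeR) and 0.34 in OE (adjusted p 0.0339, edgeR) on the log2 scale. Both calls were weak: the KD call was lost without WT library 2 or any one KD library (-0.43 to -0.37), and the OE call in 7 of 19 settings, among them without WT library 1 or 3 or OE library 1 or 2 (0.27 to 0.32). OE exceeded KD by 0.75 (adjusted p 4.31e-05, edgeR).

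Sema6b and Sema7a were under 1 CPM in every library. Sema6b fell in KD by 1.37 on the log2 scale (adjusted p 0.0221, edgeR), from 24 to 44 counts in WT to 9 to 16 in KD. Sema7a fell by 2.38 (adjusted p 0.0266, edgeR), from 11 to 32 counts to 0 to 8. Leaving out WT library 3, KD library 1 or KD library 3 ended the call of Sema6b (-1.47 to -1.10), and leaving out WT library 1 or 2 or KD library 1 or 3 that of Sema7a (-2.37 to -1.76). Sema4a, Sema4b and Sema4d differed little, with means of 14.0, 18.5 and 12.3 CPM in WT, 15.2, 17.8 and 13.6 in KD, and 14.3, 17.3 and 13.1 in OE. No contrast passed for these 3 genes, nor for Sema5a, at 1.45 ± 0.475 CPM in WT, 1.69 ± 0.323 in KD and 1.22 ± 0.0914 in OE (SD, n = 3).

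The plexins, receptors of the semaphorins, were all tested. In KD 2 of the 9 rose and 3 fell, and in OE 8 fell, all but Plxnc1. Those called were 55.6% of the plexins in KD and 88.9% in OE, against 21.3% and 36.4% of all genes. Plxnd1 (chromosome 6, 115954811 to 115995005), the receptor of Sema3e on endothelium, measured 84.6, 87.7 and 94.9 CPM in WT, 72.7, 68.9 and 74.7 in KD, and 38.1, 36.3 and 38.9 in OE. The 3 groups did not overlap, and OE was lowest by far. Its fall was 0.30 in KD (SE 0.0596, adjusted p 0.000235, edgeR) and 1.24 in OE (SE 0.057, adjusted p 2.55e-13, edgeR) on the log2 scale, a 2.36-fold lower level in OE. Plxna2 (chromosome 1, 194618218 to 194816869) measured 5.27, 6.0 and 5.37 CPM in WT, 8.52, 8.49 and 8.46 in KD, and 2.24, 2.67 and 2.20 in OE. KD was highest and OE lowest, with no overlap. The log2 fold changes were 0.61 in KD (SE 0.0565, adjusted p 0.000833, edgeR) and -1.23 in OE (SE 0.10, adjusted p 2.29e-07, edgeR), and OE was 3.58-fold below KD (adjusted p 2.57e-10, edgeR).

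Plxna1 (chromosome 6, 89316314 to 89362620), a signalling partner of neuropilin-1, measured 369.7, 418 and 447 CPM in WT, 533, 505 and 499 in KD, and 336, 332 and 353 in OE. It followed the order of Plxna2, without overlap but with smaller changes of 0.32 in KD (SE 0.0855, adjusted p 0.000406, edgeR) and -0.27 in OE (SE 0.0848, adjusted p 0.000708, edgeR). Plxna4 (chromosome 6, 32144268 to 32588192), a receptor of Sema3a, measured 398, 489 and 473 CPM in WT, 509, 498 and 483 in KD, and 263, 271 and 289.6 in OE. KD overlapped WT (0.13, adjusted p 0.163, edgeR), and OE fell by 0.72 (SE 0.10, adjusted p 2.31e-07, edgeR). Exons of both genes overlap antisense transcripts, Gm26811 and Plxna4os3. Plxna3 measured 12.8, 14.1 and 14.2 CPM in WT, 11.1, 11.4 and 9.94 in KD, and 12.3, 10.7 and 10.6 in OE. Both modified groups lay below WT, by 0.34 (adjusted p 0.0108, edgeR) and 0.29 (adjusted p 0.0162, edgeR) on the log2 scale. The KD call was lost without KD library 3 (-0.28) and the OE call without OE library 2 or 3 (-0.26 and -0.25).

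Plxnb2 (chromosome 15, 89155549 to 89180788), a receptor of class 4 semaphorins, measured 909, 960.2 and 1063 CPM in WT, 1004, 1010.1 and 1003 in KD, and 785, 789 and 804 in OE. KD fell within the WT range (0.04, adjusted p 0.594, edgeR), and OE lay below both, by 0.30 on the log2 scale (SE 0.0669, adjusted p 2.05e-05, edgeR). Plxnb1, the receptor of Sema4d, measured 92.2, 104 and 104 CPM in WT, 85.9, 85.2 and 81.4 in KD, and 75.1, 80.2 and 68.1 in OE. The groups stepped down without overlap from WT to KD to OE, by 0.25 in KD (adjusted p 0.0041, edgeR) and 0.43 in OE (adjusted p 8.76e-06, edgeR). Plxnb3 measured 2.64, 2.18 and 1.97 CPM in WT, 2.96, 2.91 and 3.79 in KD, and 1.49, 1.33 and 1.60 in OE. The KD libraries lay above WT but did not pass (0.52, adjusted p 0.0526, edgeR); they passed with DESeq2 (adjusted p 0.0474), with limma-voom (adjusted p 0.0419) and without WT library 1 (0.63). OE was lower by 0.61 (adjusted p 0.018, edgeR), a call lost without WT library 1 (-0.50) or OE library 2 (-0.54). Plxnc1, the receptor of Sema7a, was at 0.761 ± 0.30 CPM in WT, 0.552 ± 0.118 in KD and 0.56 ± 0.0982 in OE (SD, n = 3), with no contrast passing.

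All 5 ephrin-A ligands were tested, and 4 of them fell in KD, where 10.4% of all genes fell. Against WT, 0 of the 5 passed in OE with edgeR, where 36.4% of all genes passed. With edgeR 0 had an unadjusted p under 0.05, and limma-voom and DESeq2 also called 0. Efna1, Efna3 and Efna4 lie close together on the minus strand of chromosome 3, between 89271733 and 89338028. Efna1, a ligand of Epha2 that inflammatory cytokines induce in endothelium, measured 6.99, 9.34 and 7.07 CPM in WT, 4.91, 3.99 and 4.73 in KD, and 7.29, 6.54 and 6.82 in OE. KD lay below both other groups, which overlapped; the KD change was -0.78 (SE 0.16, adjusted p 0.000213, edgeR) and the OE change -0.19 (adjusted p 0.289, edgeR). Efna3 measured 2.24, 3.70 and 4.03 CPM in WT, 1.63, 1.63 and 2.03 in KD, and 3.28, 2.65 and 2.82 in OE. Efna4 measured 9.73, 8.59 and 8.08 CPM in WT, 6.64, 5.93 and 6.60 in KD, and 8.23, 7.25 and 7.69 in OE. In both, KD was lowest without overlap and OE overlapped WT. Their KD changes were -0.92 (SE 0.28, adjusted p 0.00273, edgeR) and -0.46 (SE 0.0945, adjusted p 0.00473, edgeR). Exons of Efna3 and Efna4 overlap antisense transcripts, Gm15998 and 4731419I09Rik.

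Efna2 measured 28.3, 29.4 and 29.5 CPM in WT, 24.3, 24.3 and 23.9 in KD, and 25.2, 27.4 and 27.6 in OE. WT was highest and KD lowest, with changes of -0.27 in KD (adjusted p 0.0034, edgeR) and -0.12 in OE (adjusted p 0.142, edgeR); the OE libraries lay below WT without passing. Efna5, the ephrin-A with the highest level per kilobase, was at 92.9 ± 6.15 CPM in WT, 98.0 ± 2.32 in KD and 97.9 ± 4.05 in OE (SD, n = 3), and no contrast passed. OE against KD, a direct comparison of the modified groups, gave higher levels of Efna1 by 0.59 (adjusted p 0.00116, edgeR) and of Efna3 by 0.72 (adjusted p 0.00819, edgeR).

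Of the 3 ephrin-B ligands, all tested, 2 fell in OE and 1 rose in KD. Over all genes, 19.5% fell in OE and 11.0% rose in KD. Efnb1 (chromosome X, 99136130 to 99148991) measured 116, 108 and 123 CPM in WT, 125, 128 and 129 in KD, and 77.1, 74.2 and 78.1 in OE. OE lay far below WT, by 0.60 on the log2 scale (SE 0.0599, adjusted p 4.29e-09, edgeR). KD lay just above WT, by 0.14 (SE 0.0574, adjusted p 0.0431, edgeR), a call that was lost in 13 of 19 settings, among them the removal of any one library except WT library 3 (0.09 to 0.15). Efnb2 (chromosome 8, 8617434 to 8661242), the arterial ligand of Ephb4, measured 144, 156 and 145 CPM in WT, 154, 157 and 159.5 in KD, and 121, 133 and 129 in OE. KD overlapped WT (0.08, adjusted p 0.237, edgeR), and OE was lower by 0.22 (SE 0.0553, adjusted p 0.000777, edgeR). Efnb3 measured 1.71, 2.0 and 1.92 CPM in WT, 1.15, 1.71 and 1.54 in KD, and 2.26, 3.23 and 1.60 in OE. OE overlapped both other groups, and only OE against KD passed, at 0.70 (adjusted p 0.0249, edgeR), a call lost without KD library 1, KD library 3 or OE library 2 (0.41 to 0.74).

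Of the 9 EphA receptors, 5 were tested. In KD 1 of the 5 rose, and in OE 1 rose and 1 fell. Over all genes, 21.3% were called in KD and 36.4% in OE, so the EphA receptors were called about as often as other genes. Epha4 (chromosome 1, 77367185 to 77515088), a receptor that binds ephrins of both classes, measured 8.70, 12.0 and 11.6 CPM in WT, 15.4, 15.8 and 14.9 in KD, and 8.06, 7.83 and 7.60 in OE. The groups did not overlap, though WT library 1 came close to OE. The log2 fold change was 0.51 in KD (SE 0.15, adjusted p 0.00116, edgeR) and -0.47 in OE (SE 0.15, adjusted p 0.00164, edgeR). Epha2 (chromosome 4, 141301240 to 141329384), the main receptor of ephrin-A1 on endothelium, measured 198, 207 and 212 CPM in WT, 216, 218 and 220.4 in KD, and 252, 248 and 249 in OE. OE was highest without overlap, by 0.28 on the log2 scale (SE 0.0289, adjusted p 6.97e-06, edgeR), and KD differed from WT by 0.09 (adjusted p 0.131, edgeR). The 215 tested genes of its 20 Mb stretch of chromosome 4 had a median OE change of 0.30. With that median removed, Epha2 stood at -0.02 (adjusted p 0.777, edgeR) against WT and at -0.26 (adjusted p 1.45e-05, edgeR) against KD, and the KD change against WT became 0.25 (adjusted p 0.000121, edgeR). The KD change also passed without WT library 3 (0.11). Epha7 measured 5.51, 4.42 and 4.86 CPM in WT, 4.57, 4.77 and 3.77 in KD, and 5.26, 6.34 and 5.47 in OE. WT overlapped both other groups, and only OE against KD passed, at 0.38 (adjusted p 0.0328, edgeR), and not without KD library 1, KD library 3 or OE library 2 (0.29 to 0.41). Epha1 and Epha3 were under 1 CPM, and no contrast passed.

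All 4 EphB receptors tested fell in OE, and 3 of them in KD. Over all genes, 19.5% fell in OE and 10.4% in KD. Ephb4 (chromosome 5, 137350109 to 137378669), the venous receptor of Efnb2, measured 98.1, 96.6 and 94.6 CPM in WT, 81.5, 77.3 and 79.8 in KD, and 84.3, 92.0 and 87.2 in OE. WT was highest, OE between and KD lowest, with no overlap. The falls were 0.28 in KD (SE 0.0265, adjusted p 0.000148, edgeR) and 0.13 in OE (SE 0.0397, adjusted p 0.0257, edgeR), the latter lost with upper-quartile factors (-0.10) and without WT library 1, OE library 1 or OE library 3 (-0.13 to -0.10). Ephb2, also on chromosome 4 (136647539 to 136835988), measured 50.7, 57.1 and 58.9 CPM in WT, 47.8, 43.8 and 47.6 in KD, and 40.5, 39.4 and 41.0 in OE. The groups stepped down without overlap, by 0.26 in KD (adjusted p 0.00312, edgeR) and 0.47 in OE (SE 0.068, adjusted p 2.71e-06, edgeR). Its own 20 Mb stretch moved the other way in OE, with a median of 0.35 over 282 genes, and with window medians removed the changes were -0.08 in KD (adjusted p 0.412, edgeR) and -0.81 in OE.

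Ephb3 measured 50.8, 49.3 and 55.2 CPM in WT, 48.9, 50.6 and 49.1 in KD, and 39.8, 39.6 and 38.7 in OE. Only OE stood apart, lower by 0.39 (SE 0.051, adjusted p 6.49e-06, edgeR). Ephb6, a receptor whose kinase domain is inactive, measured 14.9, 14.2 and 14.4 CPM in WT, 11.4, 11.3 and 12.0 in KD, and 12.8, 10.1 and 11.0 in OE. Both modified groups lay below WT, by 0.32 in KD (adjusted p 0.0147, edgeR) and 0.36 in OE (adjusted p 0.00361, edgeR), the KD call lost without KD library 1 or 2 (-0.31 in each). Exons of Ephb4 overlap those of Zan on the other strand.

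**Figure D3:**
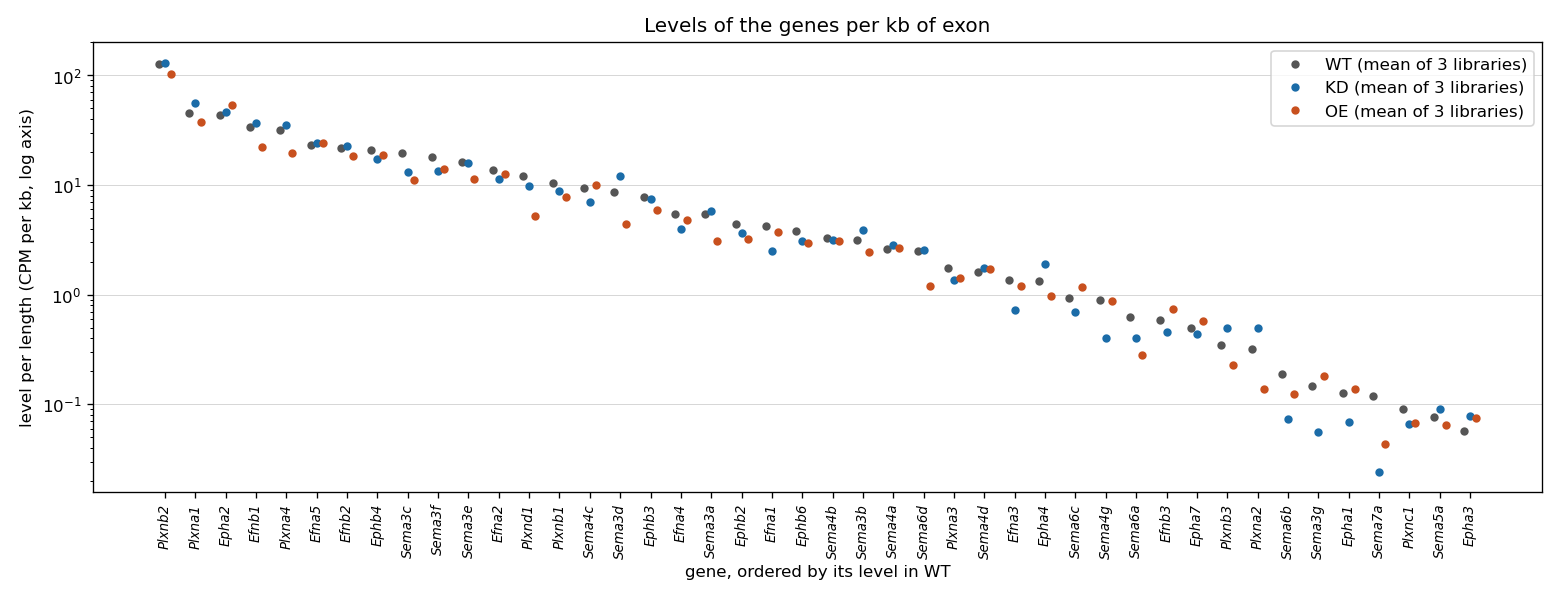
Mean level per kilobase of exon (CPM per kb, log axis) of the 44 genes tested in WT, KD and OE, ordered by the WT level. Plxnb2 leads in all 3 groups, and the spread covers over 3 orders of magnitude.

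Compared per length, so that genes could be set against each other, Plxnb2 was the most abundant of the genes in WT at 127 CPM per kb, above Plxna1 at 45.5 and Epha2 at 44.0. The WT libraries of Plxna1 and Epha2 overlapped, and those of Plxnb2 did not overlap either. Efnb1 (33.5 CPM per kb) and Plxna4 (32.1) followed and overlapped each other. Efna5 (23.0), Efnb2 (21.6), Ephb4 (20.8), Sema3c (19.7), Sema3f (17.9) and Sema3e (16.1) formed a run in which each gene overlapped the next. Below them came Efna2 at 13.6, Plxnd1 at 12.2, Plxnb1 at 10.4 and Sema4c at 9.36 CPM per kb, each without overlap with the next. The OE order differed at the top, where Epha2 ranked 2 and Plxna1 ranked 3.

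Levels per kb were also summed over each family in every library. Class 3 semaphorins summed to 71.1 ± 4.15 CPM per kb in WT, 64.3 ± 0.591 in KD and 46.6 ± 0.782 in OE, and plexins to 229 ± 18.3, 243 ± 2.96 and 175 ± 2.9. Ephrin-B ligands summed to 55.7 ± 1.48, 60.3 ± 1.03 and 41.5 ± 0.715 CPM per kb in WT, KD and OE. For these 3 groups the OE sums were 0.656, 0.761 and 0.745 times the WT sums, and no OE library reached a WT library. EphB receptors summed to 36.8 ± 0.328 in WT, 31.4 ± 0.518 in KD and 31.0 ± 0.474 in OE, lower in both modified groups. EphA receptors, of which Epha2 made up 95.6% in WT, went the other way, from 46.0 ± 1.58 in WT to 49.2 ± 0.461 in KD and 55.3 ± 0.415 in OE. Class 4 to 7 semaphorins were lowest in KD (22.2 ± 0.418, 19.0 ± 0.563 and 21.2 ± 0.414), as were ephrin-A ligands (47.8 ± 2.41, 42.9 ± 0.516 and 46.6 ± 1.16). These sums follow the few abundant genes: Plxnb2 held 55.2% of the plexin sum in WT, Efna5 48.2% of the ephrin-A sum and Ephb4 56.4% of the EphB sum. No test was made on the sums.

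**Figure D4:**
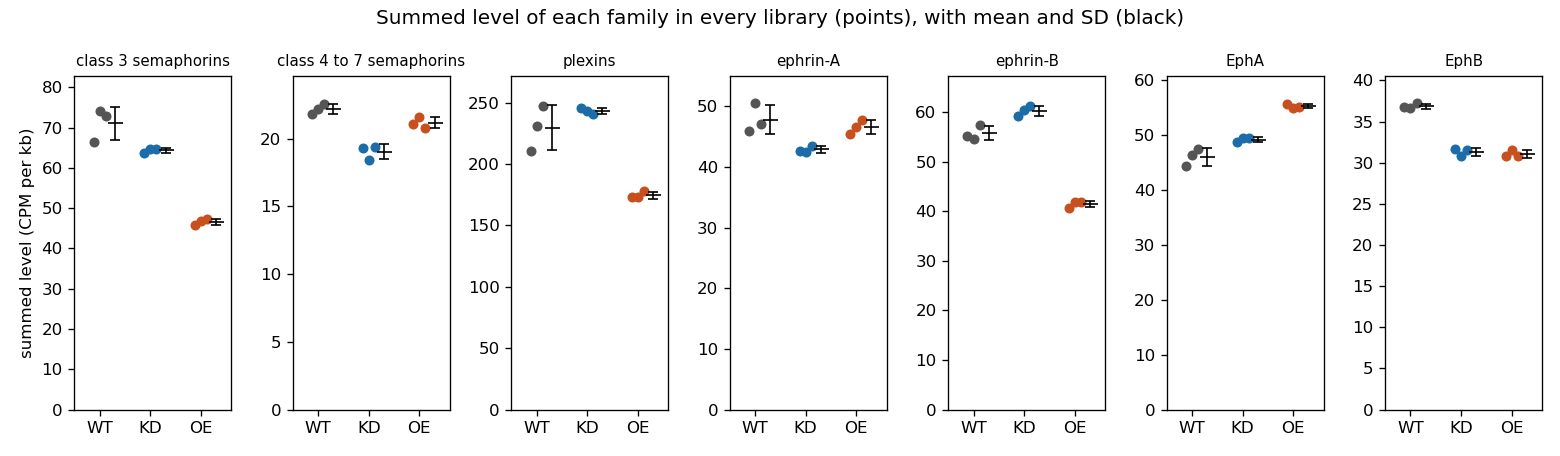
Summed level of each family per kilobase of exon (CPM per kb, axes from 0) in each of the 9 libraries, with mean and SD in black. The OE libraries are lowest for class 3 semaphorins, plexins and ephrin-B ligands and highest for EphA receptors, and the KD libraries are lowest for class 4 to 7 semaphorins and ephrin-A ligands.

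Compared directly, OE was above KD for 10 of the 44 genes and below it for 19, against 19.4% and 22.1% of all genes tested, 41.5% in all. The OE and KD libraries did not overlap for 32 of the 44, against 55.4% of all genes. Below KD by at least 2-fold were Plxna2 (-1.84), Sema3d (-1.47), Plxnb3 (-1.13, adjusted p 5.95e-05, edgeR) and Sema6d (-1.11). Above KD by at least 2-fold were Sema3g (1.66, adjusted p 0.00198, edgeR, under 1 CPM) and Sema4g (1.11). Sema3a was lower by 0.91 (adjusted p 1.19e-11, edgeR), Plxnd1 by 0.93 (adjusted p 1.3e-11, edgeR) and Epha4 by 0.97 (adjusted p 1.72e-07, edgeR), all on the log2 scale. Weak calls in this comparison were Plxnb1 (-0.18, adjusted p 0.0219, edgeR) and Ephb4 (0.14, adjusted p 0.016, edgeR), lost in 7 and 5 of 19 settings. Plxnb1 did not pass without KD library 1 or 2 or OE library 1 or 3 (-0.18 to -0.11), nor Ephb4 without KD library 2 or OE library 2 (0.12 and 0.11). Sema6a at -0.52 (adjusted p 0.0248, edgeR) was lost without KD library 2 or 3 or OE library 1 or 2 (-0.53 to -0.41), and Ephb2 at -0.21 (adjusted p 0.009, edgeR) with upper-quartile factors (-0.14). With window medians removed, the Ephb2 difference was larger, at -0.73 (adjusted p 3.9e-09, edgeR), and Plxnb1 and Ephb4, at -0.05 and 0.08, did not pass.

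The partners of the 2 systems were followed in a list of 45 co-receptors and effectors of semaphorins and plexins, of which 39 were tested. In KD 11 rose and 9 fell, and in OE 3 rose and 18 fell, with median log2 fold changes of 0.03 and -0.16. That is 51.3% and 53.8% of those tested, against 21.3% and 36.4% of all genes, whose medians were -0.00216 and 0.00204. The median size of change, whatever its sign, was 0.16 in KD and 0.22 in OE, in the list and over all genes alike. Nrp2, the co-receptor of Sema3f, was at 158 ± 10.0 CPM in WT, 166 ± 2.17 in KD and 123 ± 5.8 in OE, lower in OE by 0.36 (adjusted p 5.3e-06, edgeR). Nrp1, the co-receptor of Sema3a, was at 25.6 ± 1.52, 26.8 ± 0.217 and 21.7 ± 1.67 CPM. Its OE change of -0.24 (adjusted p 0.00872, edgeR) was lost without OE library 1 (-0.20), and became 0.20 (adjusted p 0.0356, edgeR) once the median of its 20 Mb window, -0.44, was removed. In KD, Cfl1, which encodes the actin-severing protein cofilin, went from 928 ± 59.4 to 677 ± 6.0 CPM (-0.46, adjusted p 1.48e-07, edgeR), with OE at 894 ± 16.9. Dpysl5, of the collapsin response mediators, fell from 73.0 ± 1.03 CPM to 51.9 ± 0.578 in KD (-0.49, adjusted p 2.31e-07, edgeR) and 52.7 ± 2.06 in OE (-0.47, adjusted p 1.05e-07, edgeR). Arhgef12, an exchange factor bound by B-type plexins, was at 217 ± 12.3 CPM in WT, 269.6 ± 9.7 in KD (0.31, adjusted p 6.09e-05, edgeR) and 154 ± 6.16 in OE (-0.50, adjusted p 3.45e-08, edgeR). Farp1, an exchange factor linked to A-type plexins, and Limk2, the kinase of cofilin, fell in OE by 0.43 and 0.64 (adjusted p 1.83e-08 and 3.01e-09, edgeR). With window medians removed, the OE changes of Arhgef12 and Limk2 were -0.09 and -0.12 and did not pass (adjusted p 0.148 and 0.0806, edgeR), and the KD change of Arhgef12 was 0.15 (adjusted p 0.032, edgeR). Under library totals alone or with window medians removed, 13 genes of the list passed in KD instead of 20.

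The corresponding Eph and ephrin list held 37 genes, 34 of them tested. In KD 5 rose and 8 fell, and in OE 7 rose and 10 fell, with medians of 0.07 and 0.01. That is 13 and 17 of the 34, against the same 21.3% and 36.4% of all genes. Adam10, the protease that sheds ephrins, was at 426 ± 28.9 CPM in WT, 371 ± 4.4 in KD and 185 ± 8.83 in OE. It fell by 0.20 in KD (adjusted p 0.00415, edgeR) and by 1.20 in OE (adjusted p 6.17e-14, edgeR), or by 0.31 and 0.86 with window medians removed. Vav2 and Tiam1, exchange factors downstream of Eph receptors, were higher in KD and lower in OE. Vav2 was at 149 ± 4.88, 177 ± 4.6 and 100.2 ± 5.6 CPM in WT, KD and OE, with changes of 0.25 (adjusted p 0.000426, edgeR) and -0.57 (adjusted p 3.91e-09, edgeR). Tiam1 was at 131 ± 7.36, 164 ± 2.61 and 91.4 ± 3.99 CPM, with changes of 0.32 (adjusted p 4.81e-05, edgeR) and -0.52 (adjusted p 2.01e-08, edgeR). Src, a kinase recruited by ephrin-B, was low in KD alone, at 85.7 ± 1.84 CPM in WT, 64.8 ± 0.998 in KD (-0.40, adjusted p 1.06e-06, edgeR) and 89.2 ± 1.47 in OE. Sdcbp, the PDZ protein syntenin that binds ephrin-B, rose in KD from 162 ± 6.82 to 200.2 ± 5.01 CPM (0.31, adjusted p 1.97e-05, edgeR), or by 0.18 with the window median removed. Arhgef5 fell in OE from 118 ± 3.62 to 81.0 ± 0.711 CPM (-0.54, adjusted p 4.9e-09, edgeR).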

How the data were processed

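Poly-A RNA-seq of 9 MCEC libraries, paired-end on a NovaSeq-6000 per the labels' protocols, was deposited by the authors as one table of whole-number counts per Ensembl gene, not normalised as judged from the values. GRCm38 and mm10 are named per the submitters' processing notes; aligner, counting program and use of strand are not given in the sources used here. The table's 55774 rows hold 55487 genes, since 168 genes stand on 455 rows with identical counts and were counted once. Groups follow the titles.

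Counts were filtered with filterByExpr, normalised by TMM, and all 9 libraries entered 1 robust quasi-likelihood fit in edgeR 4.0.16 (R 4.3.3). P values were adjusted over all 16955 genes tested. With 3 libraries a side, exact permutation p-values reach 0.1 at best, so single genes were judged by this fit. Standard errors come from the SDs of log2 CPM with a prior count of 2. Exon lengths and positions are those of GENCODE M21. Window medians are median changes over 20 Mb of genome, for windows with at least 10 genes. The fit was tested on simulated counts with known changes.

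Alternatives used DESeq2 1.42.0 or limma 3.58.1 (voom), other scalings and filters, fits of 2 groups, the replicate number as a block, window medians removed and each library left out. The members and both partner lists were chosen with earlier results of these data known. Members passing in any contrast with at least 1 CPM in a group are given by library. From each partner list the 3 genes of smallest p in KD and in OE against WT are named, and Nrp1 and Nrp2. Tables and figures were made with pandas 2.3.3, numpy 2.4.6 and matplotlib 3.10.9 under Python 3.11.15.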

Additional observations from a re-analysis of the deposited data

How the results depend on the processing

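Members called in at least 1 of the 3 comparisons gave 108 pairs of a gene and a comparison. Over the 19 alternatives, 76 of these pairs kept their side of the threshold, and called pairs among them kept their direction. For Sema3g, Sema6b and Sema7a, 17 or 18 of the alternatives gave a value. Changes that passed in no setting could change sign, as Sema4g did in OE against WT (-0.08 to 0.03). Of the 108 pairs, 79 were called. The members higher in OE than WT were 2, and 1 with library totals alone, with no filter beyond 1 count, with window medians removed and with only the 2 groups compared; leaving out 1 library gave 1 to 3. The members lower in OE were 23 (22 to 24 under other settings, 21 to 23 leaving out 1 library), those lower in KD 19 (16 to 19, 14 to 19) and those higher in KD 6 (4 to 7, 4 to 9). The semaphorin partner genes called in KD were 20, and 13 with library totals alone or with window medians removed. With only the 2 groups compared, which leaves the OE libraries out of the spread, 15 were called. Removing window medians turned the OE change of Epha2 from 0.28 to -0.02 against WT and from 0.20 to -0.26 against KD, and that of Nrp1 from -0.24 to 0.20 against WT and from -0.31 to 0.17 against KD; by construction this takes out what neighbouring genes share. With the replicate number as a block, 6 members were higher and 19 lower in KD, 2 and 23 in OE, and 10 and 19 in OE against KD. Deviations of same-numbered libraries correlated at -0.0384 to 0.0484 across genes, and those of differently numbered libraries at -0.0517 to 0.0323. No deviation shared by number was thus seen. Whether same-numbered libraries were grown or prepared together is not given in the sources used here. Farp1 in KD, at 0.11 (adjusted p 0.0407, edgeR), was lost in 13 of the 19 settings. Calls in KD against WT also appeared when 1 WT library was left out: Sema3a (0.14), Plxna4 (0.19) and Efnb2 (0.12) without WT library 2, and Plxnb2 (0.11) without WT library 3. In OE against KD, Efna2 (0.15) and Efna4 (0.27) passed with upper-quartile factors (0.21 and 0.33), and Sema3f (0.05) with window medians removed (0.18). Genes under 1 CPM rested on few counts, so small changes there were not detectable at this depth.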
